A study of Mus musculus with 18 samples.

Results

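The genes of the cell cycle were read in the 3 sorted cell types of the mouse glomerulus, with and without *Cd2ap*. The 42 members, of 22909 gene symbols in the deposited table, were listed by name: cyclins and their kinases, the mitotic machinery, the replication machinery, enzymes that supply nucleotides, and the transcription factors E2f1, Foxm1 and the pocket protein Rb1. All 42 were found. Each was read from the transcript cluster (a set of probes for one locus) that carries its symbol and has the highest mean signal over the 18 arrays. A dividing cell copies its DNA and then separates the copies, and each step is driven by a cyclin bound to its cyclin-dependent kinase. Most of the mitotic genes are transcribed only while a cell is dividing, so that in a tissue of resting cells their RNA comes from the few that divide. Podocytes of the adult kidney are known as cells that have left the cell cycle, while mesangial and endothelial cells can still divide.

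The 6 groups each held 3 arrays from mice 5 weeks of age: mesangial cells, podocytes and endothelial cells, each *Cd2ap*-/- (strain B6.129X1-*Cd2ap* tm1Shaw/J) or wild type. Glomeruli were enriched by sieving, and GFP positive cells were then sorted by FACS. Each cell type came from a GFP reporter line of its own, *Meis1-GFP* for mesangial and *Tie2-GFP* for endothelial cells, so that cell type and reporter line cannot be told apart. CD2AP is an adapter protein of the podocyte slit diaphragm, and mice without it develop nephrotic syndrome. The study's background lists proliferation of mesangial cells among the features of these mice. The genotype field of the labels gives wildtype for every control. The mesangial ones are titled control, and their column names carry a plus and a minus sign, so that whether these mice were heterozygous is unknown. The labels do not say whether the 3 arrays of a group came from separate mice. The study's text speaks of independent biological replicates, and each column name carries a number of its own. The p-values measure the spread between these arrays, which may be technical if the mice were shared. The letters A, B and C name a group's arrays, following the order of the columns.

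Signals are linear RMA intensities that the authors deposited. Between 33.6% and 35% of all transcript clusters reached a signal of 100, the minimum of the study's methods, on an array. As a check of the genotype, *Cd2ap* read 819, 870.4 and 797 in mutant and 922, 1037 and 1123 in wild type mesangial arrays, and 1512, 1503 and 1478 against 2108, 1670.4 and 1546 in podocytes, with no overlap in either. In endothelial arrays it read 891, 966 and 920.4 in those labelled mutant and 839.8, 859 and 757 in wild type, and so was not lower. Whether the probes lie in the deleted part of the gene is unknown, and the directions given for endothelial cells rest on the labels. The markers of each sorted cell type were present: *Nphs1* read at least 1034 in every podocyte array, *Cdh5* at least 2186 in every endothelial array and *Itga8* at least 1886 in every mesangial array. Wild type mesangial array C also held *Cdh5* at 1111, against 99.0 and 121 in the wild type arrays A and B.

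Most of the cell cycle genes gave a weak signal. Of the 42 members, 11 stayed below 100 in all 18 arrays, or 26.2%, where 53.1% of all transcript clusters did. They were the cyclins *Ccnb1*, *Ccne1* and *Ccne2*, all 4 genes of the anaphase-promoting complex and spindle checkpoint group (*Cdc20*, *Ube2c*, *Bub1* and *Bub1b*), the mitotic kinases *Aurkb* and *Plk1*, the replication licensing subunit *Mcm5* and the transcription factor *Foxm1*. Only 5 members reached 100 in every array, namely *Cdk4*, *Kif20a*, *Pcna*, *Tk1* and *Rb1*, or 11.9%, where 23.1% of all transcript clusters did. For *Kif20a* and *Tk1* this holds for the brightest cluster alone. The other *Kif20a* cluster read at most 56.2, and the other *Tk1* clusters at most 99.7 and 66.8. The brightest *Kif20a* cluster is also assigned to *Cdc23*. By cell type, 30 members were below 100 in all 6 podocyte arrays, 23 in all 6 mesangial arrays and 14 in all 6 endothelial arrays. The shares of all transcript clusters were close to one another, at 58%, 60.3% and 60.7%. Counted the other way, 12, 19 and 28 members reached 100 on at least 1 podocyte, mesangial or endothelial array. Single arrays set much of this contrast. Without wild type mesangial array C the mesangial count was 12 (of 11134 transcript clusters). Without wild type endothelial array A the endothelial count was 16 (of 11179). A signal below 100 lies near that of most probes on the array, whose median was 62.8 to 71.6, and gives no measure of how little RNA was present.

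**Figure D1:**
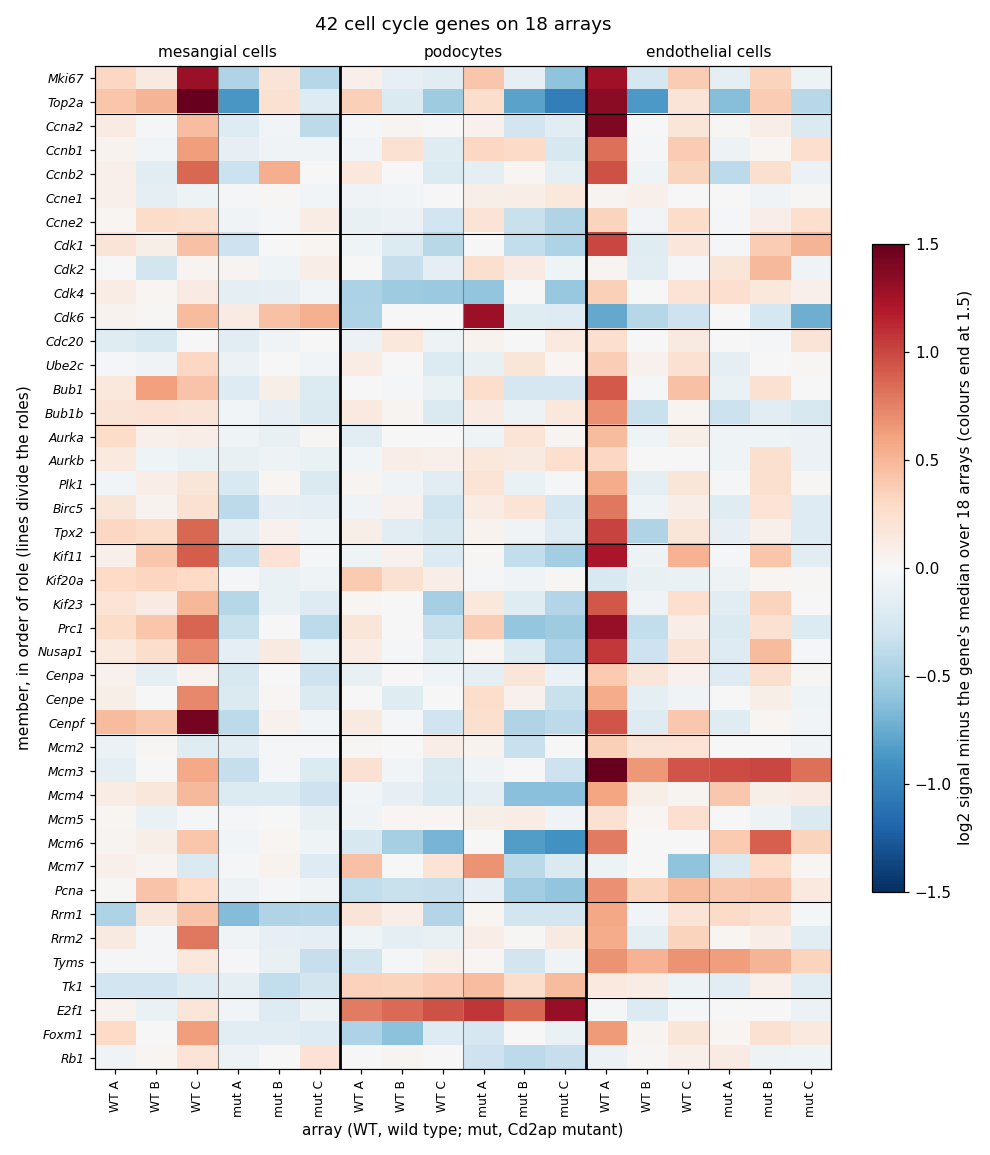
Log2 signal of each of the 42 members (rows, by role) on each of the 18 arrays (columns), minus the gene's median over all arrays, with red above and blue below it. Wild type endothelial array A and wild type mesangial array C stand out in red across the mitotic genes, *Mcm3* is red over all 6 endothelial arrays, and *E2f1* over all 6 podocyte arrays.

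Single arrays carried much of the signal. Wild type endothelial array A had 25 members at 100 or more and wild type mesangial array C had 18, while the other 16 arrays had 7 to 14. Among the 6 endothelial arrays, array A of the wild type was the highest for 32 members, or 76.2%, where it was the highest for 19.5% of all transcript clusters. Wild type mesangial array C was the highest of its 6 for 25 members, or 59.5%, against 15.4% of all transcript clusters, and mutant podocyte array A for 16, or 38.1%, against 14.3%. A further 8 members passed 100 on 1 array alone. *Ccna2*, *Birc5*, *Kif11*, *Kif23*, *Nusap1* and *Cenpa* did so only on wild type endothelial array A, and *Cenpe* and *Rrm2* only on wild type mesangial array C.

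These 3 arrays also held the most beta-globin RNA of their cell type. With each gene set to its mean over the 6 arrays of a cell type, the median over the 42 members was 0.40 on the log2 scale in wild type endothelial array A, 0.27 in wild type mesangial array C and 0.14 in mutant podocyte array A. In the other 15 arrays it lay between -0.20 and 0.06. *Hbb-b1*, the beta-globin gene of red cells, read 2579 in that endothelial array against 784 to 1675 in the other 5. In that mesangial array it read 4956 against 75.0 to 395, and in that podocyte array 3808 against 70.9 to 2944. *Alas2*, an enzyme of heme synthesis in red cell precursors, lay between 51.9 and 102 in all 18 arrays. Of 4 erythroid markers that include both genes, 3 reached 100 in the wild type mesangial group. In the mutant mesangial group 1 did, and in each other group 2. Wild type podocyte arrays held *Hbb-b1* at 2185 to 2944 and were not high in the members, with medians of 0.06, 0.03 and -0.08. What part the sample make-up had in the members' signals was not tested. In RNA from pooled cells, fewer dividing cells and less of each RNA per cell cannot be told apart.

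**Figure D2:**
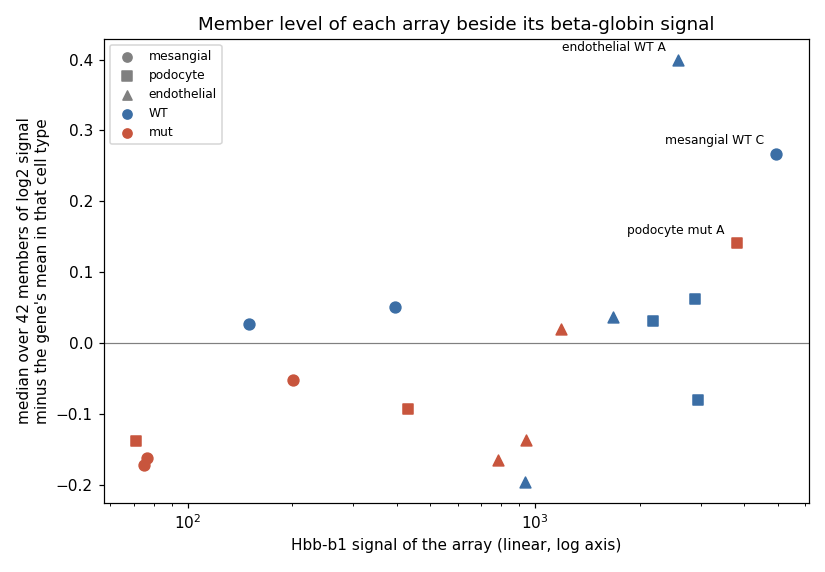
Median over the 42 members of the log2 signal minus the gene's mean in that cell type (vertical axis) beside the *Hbb-b1* signal of the same array (horizontal log axis), 1 point for each of the 18 arrays, with shapes for cell types and colours for genotypes. The 3 named arrays lie above all others, at 0.40, 0.27 and 0.14.

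In mesangial cells the proliferation markers were lower in the mutants, and most members had a lower mean, but no member passed a test adjusted over all genes. *Mki67*, which encodes the Ki-67 protein found in the nuclei of dividing cells, read 81.5, 72.2 and 162 in the wild type arrays A, B and C and 48.1, 75.4 and 49.1 in the mutant arrays. Mutant array B lay within the wild type range, and only wild type array C reached 100. *Top2a*, the topoisomerase that untangles DNA before chromosomes separate, read 132, 141 and 299 in wild type and 53.9, 116 and 86.2 in mutant arrays. The groups did not overlap, and wild type array C was the highest by far. *Prc1*, a microtubule bundling protein of the spindle midzone, read 75.4, 83.5 and 115 in wild type and 49.7, 62.8 and 47.5 in mutant arrays. *Cenpf*, a protein of the kinetochore, read 82.1, 77.9 and 159.7 in wild type and 44.9, 61.6 and 57.2 in mutant arrays. Neither of these overlapped between genotypes, and each reached 100 on wild type array C alone.

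**Figure D3:**
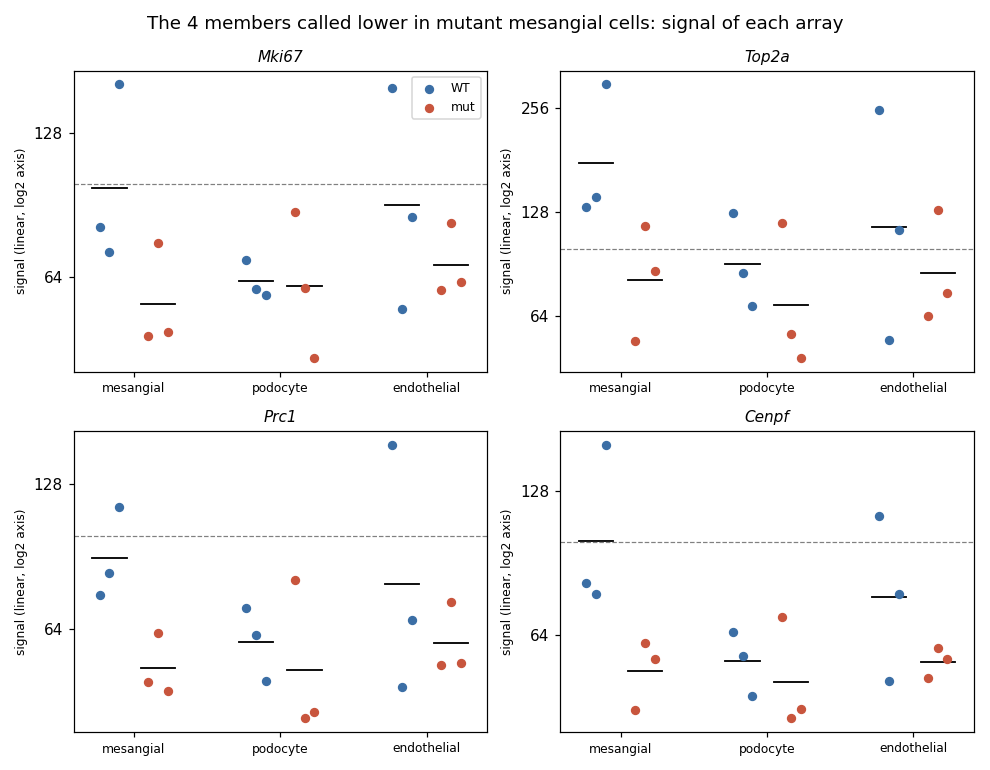
Signal of *Mki67*, *Top2a*, *Prc1* and *Cenpf* (vertical log2 axis) in each of the 3 arrays of the 6 groups, wild type in blue and mutant in red, with a bar at the geometric mean and a dashed line at 100. In mesangial cells the highest point of each gene is wild type array C, and in endothelial cells wild type array A.

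Genotypes were compared with limma on log2 signals over the 11457 transcript clusters that reached 100 on at least 1 of the 6 mesangial arrays. A member was called where the unadjusted p was under 0.05 and the fold change over 1.5, the low stringency screen of the study's methods. By limma, *Top2a* fell by 1.12 ± 0.39 on the log2 scale (SE, adjusted p = 0.166), *Cenpf* fell by 0.90 ± 0.29 on the log2 scale (SE, adjusted p = 0.145) and *Mki67* fell by 0.81 ± 0.33 on the log2 scale (SE, adjusted p = 0.22). *Prc1* fell by 0.76 ± 0.18 on the log2 scale (SE, adjusted p = 0.0815) in the limma fit. These 4 of the 19 members tested were called lower and 0 were called higher, while 3.12% of all tested transcript clusters were called lower and 2.08% higher. *Mki67*, *Prc1* and *Cenpf* entered the test only through the wild type array in which they were high, so their number among the tested says nothing by itself. With no minimum *Top2a*, *Prc1* and *Cenpf* were called and *Mki67* was not, nor was *Mki67* with array weights. *Top2a* has a second cluster with a mean of 24.4, and with both averaged the difference was -0.70 and *Top2a* was not called. With adjustment over all tested transcript clusters 0 members were called by limma, where 2.92% of transcript clusters had an adjusted p under 0.05. At an unadjusted p under 0.05, 11 members passed, beside 21.7% of transcript clusters. Of these, *Tpx2*, *Cdk1*, *Mcm4* and *Rrm1* also reached 100 in wild type arrays alone, so that this count and its direction, lower in the mutant for all 11, were set in part by the minimum.

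Counted over all 42 members with no minimum, 37 had a lower mean in mutant mesangial cells, where 44.7% of all transcript clusters had. Every mutant array lay below every wild type array for 21 members and above for 0, beside 8.9% and 10.4% of all transcript clusters. Among these 21, *Ccna2*, *Ccnb1*, *Bub1*, *Bub1b*, *Birc5*, *Kif23*, *Nusap1*, *Tyms* and *Foxm1* were below 100 in all 6 mesangial arrays. Of the 42 members, 23 were. The median difference over the members was -0.29 on the log2 scale, and over all transcript clusters 0.01. All 5 spindle motor and midzone genes, all 5 mitotic kinase and passenger complex genes, all 3 centromere genes and all 4 nucleotide supply genes had a lower mean. Their differences ran from -0.76 to -0.37, from -0.53 to -0.08, from -0.90 to -0.17 and from -0.56 to -0.01. Of 7 replication licensing and clamp genes 6 had a lower mean, and of 5 cyclins 4. The exceptions were *Ccne1*, *Cdk2*, *Cdk6*, *Cdc20* and *Mcm2*, with differences up to 0.18.

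Wild type array C carried much of the size of these differences. Without it, 35 members had a lower mean, 22 did not overlap between genotypes on the lower side (14.4% of all transcript clusters with these 5 arrays), and the median over the members was -0.17. *Top2a* stayed called, with a difference of -0.74 (3.04% of transcript clusters were called lower). *Mki67*, *Prc1* and *Cenpf* differed by -0.45, -0.58 and -0.56, and could not be tested because no remaining array reached 100. That array also carried signal of other cells. The 6 endothelial markers summed to 6559 there and to 1567 at the least in its group, against 1748 to 2079 in the mutants, and all 6 reached 100 in the wild type group and 5 in the mutants. The podocyte gene *Nphs1* read 58.2, 55.6 and 168 in wild type and 61.1, 53.8 and 60.5 in mutant arrays. Of 6 podocyte markers, 6 reached 100 in the wild type group and 3 in the mutants, so *Nphs1* alone does not give the size of the podocyte signal. The 6 tubule markers summed to 325 to 836 in wild type and 353 to 354 in mutant arrays, with 4 and 0 of them reaching 100. The 8 leukocyte markers summed to 437 to 1208 in wild type and 549 to 2039 in mutant arrays, with 3 reaching 100 in either genotype, and so overlapped. Other lists separated the genotypes in all 6 arrays. The 5 mesangial markers, all above 100 in some array of either genotype, summed to 6360.0 to 7229 in wild type and 4353 to 4869 in mutant arrays. The 2 parietal epithelium markers, 1 of which reached 100, summed to 161 to 182 and 256 to 382, and the 4 smooth muscle and juxtaglomerular markers, all reaching 100, to 1220.4 to 1515 and 1516 to 2784. The part of these cells in the differences was not tested. Leaving out mutant array A left *Prc1* as the 1 member called, and leaving out mutant array C left *Prc1* and *Cenpf* (2.71% and 3.25% of transcript clusters were called lower).

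The other members that passed an unadjusted p under 0.05 moved less. *Tpx2* and *Cdk1* were tested only because wild type array C reached 100, and *Mcm4* and *Rrm1* only because wild type arrays did. *Tpx2*, which activates the Aurora A kinase on the spindle, differed by -0.53 (95% interval -0.93 to -0.13, limma adjusted p = 0.146). *Mcm4*, a subunit of the replicative helicase, differed by -0.50 (-0.78 to -0.22, limma adjusted p = 0.0769), and *Rrm1*, the large subunit of ribonucleotide reductase, by -0.56 (-1.08 to -0.03, limma adjusted p = 0.211). *Cdk1*, the kinase of mitotic entry, differed by -0.33 (limma adjusted p = 0.22). *Pcna*, the sliding clamp of DNA polymerase, read 947, 1257 and 1149 in wild type and 888, 921 and 898 in mutant arrays. The groups did not overlap, at 1117 ± 157 and 903 ± 17.0 (SD, n = 3), and the log2 difference was -0.30 (limma adjusted p = 0.21). *Cdk4*, the kinase partner of the D cyclins, read 365, 345 and 368.5 against 305, 309 and 327, also without overlap, a log2 difference of -0.20 (limma adjusted p = 0.213).

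*Kif20a* encodes a kinesin of the spindle midzone. Its cluster is also assigned to *Cdc23*, so what it measures is uncertain, and a second cluster of the same 2 genes read only 43.04 to 56.2. The brighter cluster read 315, 319 and 314 in wild type and 253, 237 and 243 in mutant mesangial arrays. Its replicates were tight and the groups did not overlap, with a log2 difference of -0.37 ± 0.07 (SE, limma adjusted p = 0.0553). In podocytes it read 335, 299 and 272 in wild type and 249, 246 and 258 in mutant arrays, again lower in every mutant array (-0.26, limma adjusted p = 0.39). In endothelial cells the order was turned, with 218, 236 and 237 in wild type arrays and 241, 260.3 and 257 in those labelled mutant (0.13, limma adjusted p = 0.433).

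Promoters of the 4 members called lower in mutant mesangial cells are shown because genes of mitosis are known to share short promoter elements. One is the cell cycle genes homology region (CHR), bound by complexes that hold the gene off in resting cells, and another is the CCAAT box, bound by NF-Y. The windows run from 250 bases before to 50 bases after the annotated start, 5′ to 3′ on the strand of the gene, from RefSeq on GRCm38.p6. Capitals mark each match, on either strand, to TTTGAA or TTCGAA (CHR cores), to CCAAT, or to TTTCCCGC, TTTGGCGC or TTTCGCGC (E2F cores).
Mki67, chr7:135716330-135716629, minus strand: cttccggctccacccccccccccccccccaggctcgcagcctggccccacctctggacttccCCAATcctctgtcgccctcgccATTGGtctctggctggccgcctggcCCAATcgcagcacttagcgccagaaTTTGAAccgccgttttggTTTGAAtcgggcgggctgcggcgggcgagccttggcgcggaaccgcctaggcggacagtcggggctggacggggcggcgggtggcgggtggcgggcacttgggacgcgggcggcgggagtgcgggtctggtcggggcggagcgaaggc
Top2a, chr11:99024140-99024439, minus strand: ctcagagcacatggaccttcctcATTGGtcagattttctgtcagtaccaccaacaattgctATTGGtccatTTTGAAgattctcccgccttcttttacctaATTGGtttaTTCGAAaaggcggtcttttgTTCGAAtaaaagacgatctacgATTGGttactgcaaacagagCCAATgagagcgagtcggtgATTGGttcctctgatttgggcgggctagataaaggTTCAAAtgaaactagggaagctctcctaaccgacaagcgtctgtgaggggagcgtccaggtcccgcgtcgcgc
Prc1, chr7:80294201-80294500, plus strand: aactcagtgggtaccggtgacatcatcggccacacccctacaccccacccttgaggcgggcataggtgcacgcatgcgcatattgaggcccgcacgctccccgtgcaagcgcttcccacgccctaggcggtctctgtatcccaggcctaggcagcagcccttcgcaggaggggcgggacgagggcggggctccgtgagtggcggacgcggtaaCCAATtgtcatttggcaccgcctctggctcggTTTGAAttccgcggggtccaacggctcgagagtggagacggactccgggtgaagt
Cenpf, chr1:189688037-189688336, minus strand: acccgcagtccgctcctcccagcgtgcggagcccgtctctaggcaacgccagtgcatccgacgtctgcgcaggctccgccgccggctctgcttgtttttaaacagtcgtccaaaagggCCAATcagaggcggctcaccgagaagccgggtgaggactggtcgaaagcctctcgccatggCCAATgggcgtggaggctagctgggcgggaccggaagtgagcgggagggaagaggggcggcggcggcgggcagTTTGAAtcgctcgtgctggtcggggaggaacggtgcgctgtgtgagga
All 4 windows hold both a CHR core and a CCAAT box. In *Mki67* the CHR cores begin 116 and 98 bases before the start, in *Prc1* 5 bases before it, and in *Cenpf* at base 3 after it. *Top2a* holds 4 CHR cores and 6 CCAAT boxes, and *Prc1* holds 1 of each. None of the 4 holds an E2F core of these letters.

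A window was found for 34 of the 42 members, and 1 window was taken for each gene. The others are *Foxm1*, *Ccna2*, *Mcm4*, *Aurkb*, *Rb1*, *Ccne2*, *Tpx2* and *Kif20a*. Of these 34, 17 hold a CHR core (50%), where 19.4% of the 27025 RefSeq genes with a window do, and 26 hold a CCAAT box (76.5%, against 37.9%). Both were found in 17 members (50%, against 7.7% of all genes with a window). An E2F core was found in 6 members (17.6%, against 1.91%), namely *Cdk1*, *Cdk2*, *Mcm3*, *Mcm5*, *Mcm6* and *Mcm7*. All 4 anaphase-promoting complex and spindle checkpoint genes hold a CHR core and none of the 4 nucleotide supply genes does. These are matches of letters and not measured binding, and several of the genes with both elements, such as *Plk1* and *Cdc20*, stayed below 100 in all 18 arrays.

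In podocytes no member was called. Over 12113 transcript clusters, 12 members were tested by limma and 0 were called in either direction, where 4.34% of transcript clusters were called lower and 1.26% higher. At an adjusted p under 0.05 the count was also 0 (0.0578% of transcript clusters), and 1 member passed an unadjusted p under 0.05 (14.3% of transcript clusters). That member was *Rb1*, the retinoblastoma protein that holds E2F factors inactive. It read 306, 316 and 309 in wild type and 246, 234 and 240.3 in mutant podocytes. The arrays within each genotype were close together and the genotypes did not overlap, with 310.2 ± 5.16 and 240.1 ± 6.34 (SD, n = 3). The log2 difference was -0.37 ± 0.11 (SE, 95% interval -0.63 to -0.11, limma adjusted p = 0.218), a fold change below 1.5.

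Over all 42 members the podocyte means were split, 21 lower and 21 higher in the mutant, with a median of -0.01 on the log2 scale beside 0.03 for all transcript clusters. Arrays did not overlap for 2 members on the lower side (*Rb1* and *Kif20a*) and for 3 on the higher side (*Ccne1*, *Aurkb* and *Rrm2*, below 100 in all podocyte arrays), beside 7.35% and 9.6% of all transcript clusters. *Mki67* read 69.5, 60.5 and 58.7 in wild type and 87.6, 60.6 and 43.4 in mutant podocytes, all below 100. *Top2a* read 127, 85.0 and 68.1 in wild type and 118, 56.8 and 48.3 in mutant podocytes, with wide overlap (-0.39, 95% interval -1.24 to 0.45). The 6 endothelial markers summed to 3650 to 4825 in wild type and 559 to 2134 in mutant podocytes, all 6 reaching 100 in both. The 5 mesangial markers summed to 2082 to 2764 in wild type, where 5 reached 100, and 689 to 1866 in mutant podocytes, where 4 did. The 2 parietal epithelium markers summed to 245 to 264 in wild type and 419 to 665 in mutant podocytes, and the 4 smooth muscle and juxtaglomerular markers to 704 to 734 and 957 to 2903, all reaching 100 in both genotypes. None of these sums overlapped between genotypes, and their part in the differences was not tested. In both genes mutant array A was the high one of its group. Without it *Top2a* was called lower, having reached 100 in wild type array A alone, so that the minimum set its direction (8.61% of transcript clusters were called lower), and 15 members did not overlap on the lower side (14% of all transcript clusters with these 5 arrays). *Cdk6*, a kinase partner of the D cyclins, also stood apart in that array, at 335, 121 and 119.7 in mutant against 99.96, 138 and 137 in wild type podocytes.

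In endothelial cells no member was called either. Of 28 members tested by limma over 11330 transcript clusters, 0 were called higher and 0 lower in the arrays labelled mutant, where 2.96% and 0.865% of transcript clusters were. At an adjusted p under 0.05 the count was 0 (1.29% of transcript clusters), and at an unadjusted p under 0.05 it was 1 (18.5% of transcript clusters). That member was *Mcm2*, another helicase subunit, with 117, 105 and 106 in wild type and 91.4, 92.1 and 88.5 in arrays labelled mutant. It reached 100 in wild type arrays alone, so that the minimum set its direction. The groups did not overlap, with a log2 difference of -0.27 ± 0.09 (SE, limma adjusted p = 0.187). *Mki67* read 159, 54.7 and 85.6 in wild type and 60.1, 82.9 and 62.4 in arrays labelled mutant. *Top2a* read 252, 54.2 and 113 in wild type and 63.7, 129 and 74.2 in arrays labelled mutant. The wild type arrays held both the highest and the lowest value of each gene, so the spread within the group was wider than the gap between groups.

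In all, 36 members had a lower mean in the endothelial arrays labelled mutant, beside 59.1% of all transcript clusters, with a median of -0.17 against -0.03. Arrays did not overlap for 3 members on the lower side (*Ube2c*, *Mcm2* and *Mcm5*) and 1 on the higher side (*Kif20a*), beside 14.1% and 8.34% of all transcript clusters. *Ube2c* and *Mcm5* were below 100 in every array. The summed podocyte markers were higher in every endothelial array labelled mutant than in any wild type one, with 3 and 2 of 6 reaching 100. The other marker lists overlapped between genotypes, and the part of other cells in the differences was not tested. Without wild type array A, 22 members had a lower mean and the median was -0.01. Without wild type array B, the lowest of its group for *Mki67* and *Top2a*, 7 members were called lower by the same screen (0.837% of transcript clusters), namely *Mki67*, *Top2a*, *Ccna2*, *Ccnb2*, *Tpx2*, *Kif11* and *Cenpf*. All but *Top2a* entered that test only because wild type array A reached 100, so that their direction was set by the minimum.

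**Figure D4:**
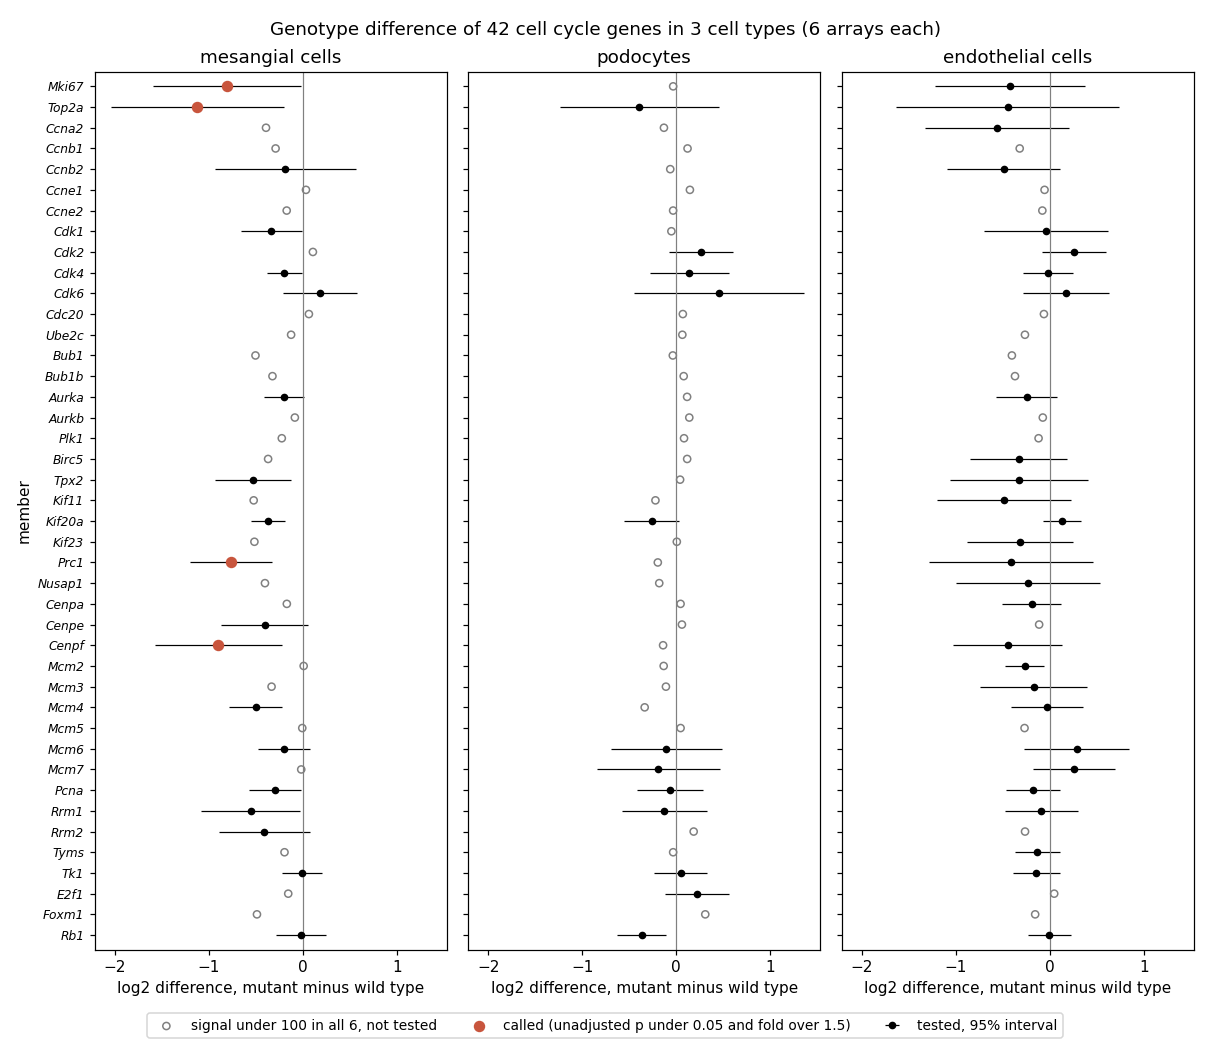
Log2 difference, mutant minus wild type, of each of the 42 members in the 3 cell types (6 arrays each). Filled points were tested and carry 95% intervals, open points were below 100 on all 6 arrays, and red points are the 4 members called lower in mesangial cells. Nearly all mesangial points lie left of 0, and the podocyte points lie on both sides.

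Whether the genotype difference itself varied with cell type was tested as an interaction, with limma fitted to the 18 arrays together. There were 13523 transcript clusters tested, of which 31 carry members. By limma, 0 members had an adjusted p under 0.05 for podocytes against mesangial cells, for endothelial against mesangial cells or for endothelial cells against podocytes, where 0.717%, 1.07% and 2.11% of transcript clusters did. At an unadjusted p under 0.05 there were 3, 1 and 2 members, beside 12%, 15.9% and 23.4% of transcript clusters. For *Mki67* the difference in podocytes exceeded that in mesangial cells by 0.77 (95% interval -0.30 to 1.85), and for *Top2a* by 0.73 (-0.79 to 2.24). Both intervals hold 0, and the upper bounds are over 1 on the log2 scale. The fall of the markers in mesangial cells was thus not shown to be particular to them. The *Kif20a* cluster came nearest to the threshold, with 0.51 between endothelial and mesangial cells (limma adjusted p = 0.0514). It passed there with no minimum, array weights or medians subtracted, and with medians subtracted also between endothelial cells and podocytes.

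Wild type cell types were compared next. *Pcna* read 722, 744 and 737 in podocytes, 947, 1257 and 1149 in mesangial cells and 1498, 1181 and 1302 in endothelial cells. The 3 podocyte arrays were the lowest, while mesangial and endothelial arrays overlapped. Podocytes were lower than mesangial cells with a log2 difference of -0.60, and lower than endothelial cells with -0.85 (limma adjusted p = 0.0106 and 0.000464). The first of these lies close to the fold threshold, and the call was lost without mesangial array B, mesangial array C or podocyte array A, and with quantile normalization. A second *Pcna* cluster gave nearly the same values, with a mean of 991 over the 18 arrays against 994, so which of the near-identical copies it reads is uncertain.

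*Cdk4* followed the same order, with 243, 234 and 229.9 in wild type podocytes, 365, 345 and 368.5 in mesangial and 433, 334 and 388 in endothelial cells, and log2 differences of -0.61 and -0.70 for podocytes against the others (limma adjusted p = 0.00193 and 0.00164). A second, dimmer *Cdk4* cluster is shared with *Tspan31*, and with both averaged the differences were -0.38 and -0.22 and *Cdk4* was no longer called in either comparison. *Mcm6*, a helicase subunit, read 103, 86.0 and 74.6 in podocytes, 125, 129 and 161 in mesangial cells and 208, 122 and 120.2 in endothelial cells. It was lower in podocytes by both comparisons (-0.66 and -0.74, limma adjusted p = 0.0198 and 0.0284). Podocytes were thus the lowest for all 3 genes. *Rb1* did not follow this order, with 306, 316 and 309 in podocytes, 296, 313 and 353 in mesangial and 289, 309 and 322 in endothelial cells, and the 3 cell types overlapped.

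The helicase subunit *Mcm3* and thymidylate synthase, *Tyms*, were highest in endothelial cells. *Mcm3* read 195, 92.2 and 113 in wild type endothelial cells against 53.4, 58.9 and 87.0 in mesangial cells and 68.8, 57.4 and 50.7 in podocytes. In the arrays labelled mutant it read 116, 118 and 104 in endothelial cells, 46.3, 57.9 and 51.2 in mesangial cells and 56.9, 58.8 and 47.6 in podocytes, so that all 6 endothelial arrays lay above all 12 others. *Tyms* read 131, 118 and 131 in wild type endothelial cells, 80.4, 80.3 and 91.6 in mesangial cells and 68.0, 80.9 and 86.4 in podocytes. Against mesangial cells the wild type log2 differences were -0.97 for *Mcm3* and -0.59 for *Tyms*, mesangial minus endothelial (limma adjusted p = 0.0482 and 0.00404), and for podocytes minus endothelial cells -1.12 and -0.70 (limma adjusted p = 0.00869 and 0.00184). Both genes were tested only through the endothelial arrays, being below 100 in every wild type mesangial and podocyte array, so that the minimum set their direction. With no minimum both were called in both comparisons. Against mesangial cells neither gene was called without wild type mesangial array A. *Tyms*, close to the fold threshold, also lost its call without mesangial array B, endothelial array A or endothelial array C, and with medians subtracted or quantile normalization. Both stayed called when mesangial array C and endothelial array A were left out together. The *Tyms* cluster is also assigned to *Tyms-ps*, so what it measures is uncertain.

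*E2f1* and *Tk1* went the other way. *E2f1*, which activates genes of DNA replication, read 109, 114 and 124 in wild type podocytes, 66.3, 59.4 and 72.4 in mesangial cells and 63.2, 55.4 and 62.9 in endothelial cells, and 134, 116 and 157 in mutant podocytes. It passed 100 in all 6 podocyte arrays and in none of the other 12. The wild type log2 differences were 0.81 against mesangial and 0.94 against endothelial cells (limma adjusted p = 0.00178 and 0.000176). *E2f1* was tested only through podocyte arrays, so that the minimum set its direction, and with no minimum it was called in both comparisons. *Tk1*, the thymidine kinase of dividing cells, read 187, 185 and 192 in wild type and 202, 176 and 205 in mutant podocytes. In mesangial cells it read 121, 121 and 129 in wild type and 133, 114 and 122 in mutant arrays. In endothelial cells it read 163, 159 and 139.7 in wild type arrays and 132, 155 and 131 in those labelled mutant. Podocytes exceeded mesangial cells by 0.61 (limma adjusted p = 0.00187), but 2 dimmer clusters of *Tk1* had means of 77.5 and 51.1, and with all 3 averaged the difference was 0.12.

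**Figure D5:**
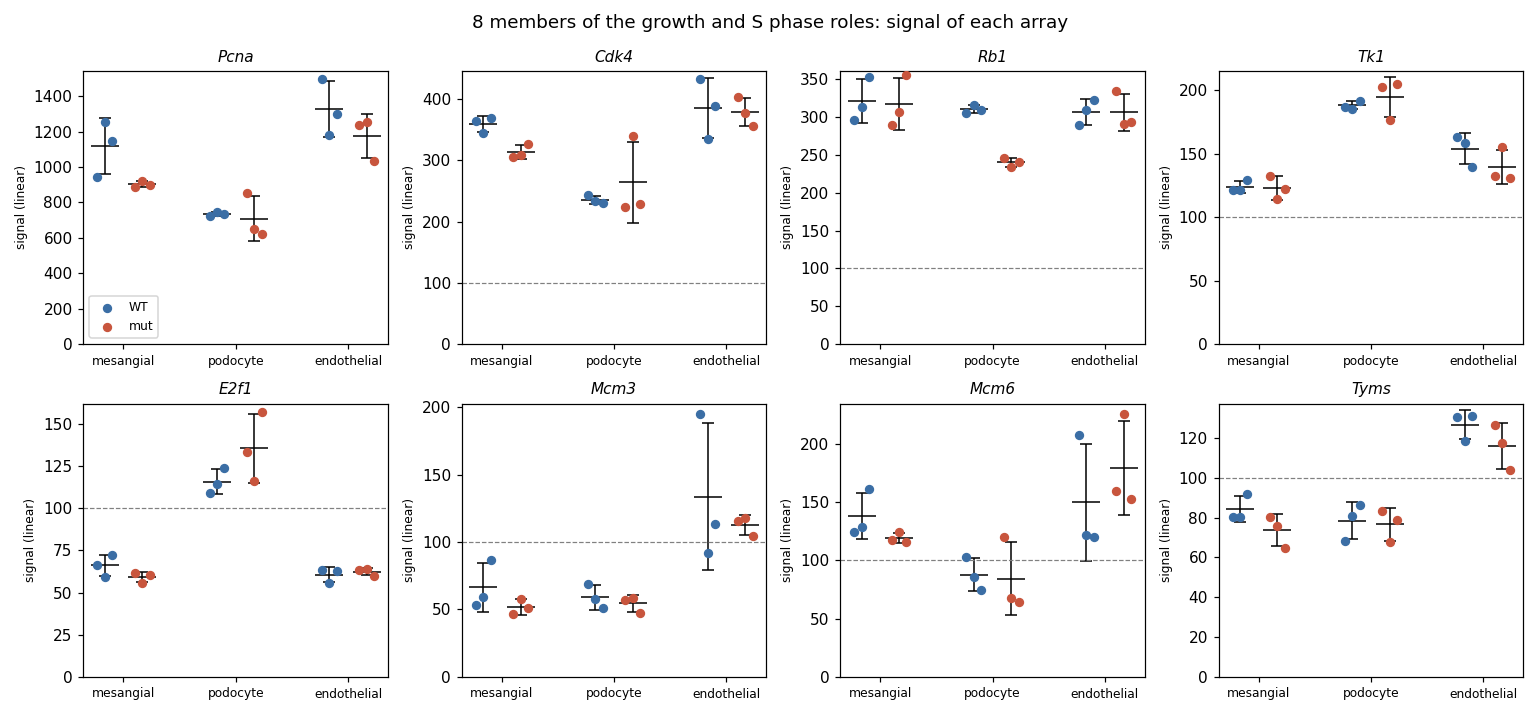
Signal (vertical linear axis from 0) of 8 members in each array, by cell type, wild type in blue and mutant in red, with the mean and SD of 3 arrays in black and a dashed line at 100 except for *Pcna*. *Pcna*, *Cdk4* and *Mcm6* are lower in wild type podocytes than in the other 2 wild type cell types, *E2f1* and *Tk1* are higher in podocytes than in mesangial cells, and *Mcm3* and *Tyms* highest in endothelial cells.

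In all, podocytes against mesangial cells gave 2 members higher (*Tk1* and *E2f1*) and 6 lower of 21 tested, where 6.35% and 10.2% of 11888 transcript clusters were. The 6 were *Cdk4*, *Mcm6*, *Pcna*, *Top2a*, *Tpx2* and *Cenpf*. *Tpx2* and *Cenpf* were tested only because wild type mesangial array C reached 100, which set their direction. For *Top2a* and *Cenpf* the limma adjusted p was 0.0826 and 0.0648, and for *Tpx2* 0.0491. Without wild type mesangial array C only *Top2a* and *Cdk4* of these 6 stayed called, and without wild type podocyte array C only *Cdk4* and *Pcna* (10.6% and 9.36% of transcript clusters were called lower). *Cdk4* was called whichever array was left out, but not with its clusters averaged or with quantile normalization, where *Pcna* was not called either. *Top2a* was not called with its clusters averaged or with all 18 arrays in 1 fit. Podocytes against endothelial cells gave 1 member higher (*E2f1*) and 5 lower (*Cdk4*, *Mcm3*, *Mcm6*, *Pcna* and *Tyms*) of 28 tested, beside 10.3% and 12.7% of 12023 transcript clusters. Without wild type endothelial array B, 15 members were called lower (13.2% of transcript clusters), 11 of which were below 100 in every wild type podocyte array and were tested only through endothelial arrays. Without array A, *Mcm6* was no longer called. Mesangial against endothelial cells gave 1 higher and 2 lower (*Mcm3* and *Tyms*) of 28, beside 10.3% and 8.56% of 11936. The higher one was *Cdk6*, at 143, 139 and 190.2 against 80.4, 102 and 111 (0.68, limma adjusted p = 0.0214), and it was no longer called without wild type mesangial array C or without endothelial array A. In the latter case *Top2a* and *Prc1* were called higher in mesangial cells (11.5% of transcript clusters), *Prc1* being tested only through mesangial array C. These comparisons share their groups. Wild type podocytes also carried markers of other glomerular cells, with *Emcn*, an endothelial sialomucin, at 1725, 1979 and 1532 and *Itga8* at 1153, 1152 and 869, whose part in these levels was not tested.

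The remaining members are given by role. Among the cyclins, *Ccnb2* read 53.3 to 136, *Ccnb1* 29.9 to 62.4 and *Ccna2* 36.9 to 128. All 3 were highest on wild type endothelial array A. The cyclin E genes *Ccne1* and *Ccne2*, which act at the start of DNA replication, stayed at 42.6 to 52.6 and 37.7 to 65.1. Of the kinases, *Cdk1*, the partner of the mitotic cyclins, read 57.0 to 158, and *Cdk2* 72.3 to 129. *Cdk1* was highest on the same endothelial array.

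The anaphase-promoting complex and spindle checkpoint genes lay between 31.1 and 78.4. Among the mitotic kinases and their partners, *Tpx2* read 44.2 to 122, *Aurka* 75.9 to 118 and *Birc5* (survivin) 46.1 to 105. *Aurkb* and *Plk1* reached 78.7 and 81.9. The kinesins *Kif11* and *Kif23* reached 121 and 121, and *Nusap1*, a spindle protein, 110.3, again on wild type endothelial array A. Its cluster is shared with *Oip5*. The centromere genes *Cenpa* and *Cenpe* ran from 68.2 to 111 and from 48.6 to 100.33.

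Of the helicase subunits, *Mcm5* was below 100 throughout, at 61.6 to 85.0, and *Mcm4* read 60.3 to 141. *Mcm7*, whose cluster is shared with *Ap4m1*, read 58.8 to 143. *Mcm7* was highest on mutant podocyte array A and not on either of the arrays that led the mitotic genes. The ribonucleotide reductase subunits *Rrm1* and *Rrm2* ran from 85.3 to 201 and from 52.6 to 102. *Foxm1*, which activates mitotic genes, read 40.4 to 96.1.

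Beyond the members, 47 other genes of mitosis, 22 of S phase and 23 regulators of the cycle were read in the same way. The shares of all tested transcript clusters called higher and lower were 2.08% and 3.12% in mesangial cells, 1.26% and 4.34% in podocytes, and 2.96% and 0.865% in endothelial cells. In mutant mesangial cells 1 of the 12 tested mitosis genes was lower and 0 higher, 0 of 8 tested S phase genes passed, and 2 of 19 tested regulators were higher and 0 lower. *Smc2*, a subunit of condensin, had means of 79.0 in mutant and 152 in wild type arrays, a log2 difference of -0.95 ± 0.17 (SE, limma adjusted p = 0.0432). *Cdkn2c*, an inhibitor of *Cdk4* and *Cdk6*, differed by 0.72 ± 0.13 (SE, limma adjusted p = 0.0418), with means of 150.2 and 91.2. *Myc*, a growth-promoting transcription factor, differed by 1.06 ± 0.14 (SE, limma adjusted p = 0.0204), with means of 111 and 52.8. These 3 passed the adjusted threshold, but each reached 100 only in the genotype where it was higher, so that the minimum set its direction. The median differences of the 3 lists were -0.13, 0.01 and -0.12, beside 0.01 for all transcript clusters.

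In podocytes 1 regulator of 16 tested was lower, *E2f3* at -0.69 ± 0.27 (SE, limma adjusted p = 0.327), and 0 of 7 tested mitosis genes and 0 of 7 tested S phase genes passed. In endothelial cells 1 regulator of 17 was higher in the arrays labelled mutant, and 0 of 15 mitosis genes and 0 of 9 S phase genes passed. That regulator was *Cdkn1a*, which encodes the kinase inhibitor p21, with means of 630.3 and 301 and a difference of 1.06 ± 0.13 (SE, limma adjusted p = 0.0105). In mesangial cells *Cdkn1a* differed by 0.13 ± 0.24 (SE, limma adjusted p = 0.796) and in podocytes by 0.36 ± 0.33 (SE, limma adjusted p = 0.643). Between wild type cell types, podocytes against mesangial cells gave 0 higher and 2 lower of 12 tested mitosis genes, 0 and 1 of 8 S phase genes, and 1 and 3 of 17 regulators (6.35% and 10.2% of transcript clusters). Podocytes against endothelial cells gave 0 and 0 of 14, 0 and 3 of 9, and 2 and 3 of 17 (10.3% and 12.7%), and mesangial against endothelial cells 0 and 0 of 14, 0 and 0 of 9, and 1 and 2 of 17 (10.3% and 8.56%). *Cdkn1c*, the inhibitor p57 known from podocytes, had a mean of 1768 in podocytes, 189 in mesangial and 171 in endothelial cells. It was higher in podocytes by 3.34 ± 0.31 (SE, limma adjusted p = 0.000519) and 3.38 ± 0.11 (SE, limma adjusted p = 1.76e-07) on the log2 scale. Cyclin D1, *Ccnd1*, was lower in podocytes, with log2 differences of -0.85 ± 0.19 (SE, limma adjusted p = 0.0165) from mesangial and -1.61 ± 0.20 (SE, limma adjusted p = 0.000335) from endothelial cells.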

How the data were processed

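RNA of sorted cells was amplified in a single round (Ribo-SPIA) and read on 18 Affymetrix arrays of the Mouse Gene ST type. Per the labels, the authors deposited RMA signals, here linear intensity values for 28856 transcript clusters (25254 with a symbol). The table's other 18 columns, a second and normalized form, were not used. The series record names another array type and program than the file header, the sample labels and the methods. The median signal of an array was 62.8 to 71.6, and 3 arrays per group limit the precision.

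Groups came from the labels. Columns could be tied to a group and not to a single sample. Log2 signals were fitted in R 4.3.3 with limma 3.58.1 (lmFit, then eBayes), mutant minus wild type within a cell type, between wild type cell types, and as interactions over 18 arrays, with no covariate. A transcript cluster was tested where at least 1 array of the comparison reached 100. A call took a fold change over 1.5 with an unadjusted p under 0.05, and Benjamini-Hochberg adjustment ran over all tested clusters. The fit was tested on simulated data for the mesangial comparison (11457 clusters). There 96% of changes of 1 and 100% of changes of 2 on the log2 scale were called with the right sign. Of unchanged clusters 0.675% were called. Noise was drawn independently for each cluster and array, and the changed clusters were picked at random. An array high across many members was thus not simulated, and these rates are not those of the members.

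The members, lists, roles and alternatives were chosen with earlier results of these data known. Per-array values are given for *Mki67*, *Top2a*, members called between genotypes and members at 100 or more in every array. Others are given by range, apart from *Rrm2* where it was flagged. In addition, *Mcm2*, *Cdk6* and the members called between cell types other than *Tpx2* were given per array after their values were seen. The markers named beside them were chosen in the same way, and some markers and 1 reporter line are not reported here. Promoters came from RefSeq windows (GRCm38.p6), which were matched by symbol for 34 members. Coordinates of the arrays' own build were not used here.

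Alternatives were other signal minimums, all arrays in 1 fit, adjusted p, eBayes with trend and robust estimation, array weights, array medians subtracted, quantile normalization again, all clusters of a gene averaged, clusters with 1 symbol only, other thresholds than 100, and each array left out.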

Additional observations from a re-analysis of the deposited data

Results flagged for a closer look

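*Rrm2*, the small subunit of ribonucleotide reductase, and the *Kif20a* cluster had every mutant array below every wild type array in at least 1 cell type and above in another. *Rrm2* read 64.6, 58.4 and 102 in wild type and 57.0, 53.9 and 53.5 in mutant mesangial cells, and 56.4, 53.7 and 54.5 in wild type and 63.2, 59.5 and 64.7 in mutant podocytes. The difference of the 2 genotype effects was 0.5942 on the log2 scale (limma, 95% interval 0.05 to 1.14, adjusted p = 0.37). *Rrm2* was picked by these same values, so the interval is no test of the difference. All but 1 of these 12 signals were below 100. The exception was wild type mesangial array C, and *Rrm2* entered the fit only through it. Without that array the mesangial genotype difference was -0.16, against -0.41 with it.

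For *Kif20a* the genotype effect in endothelial cells exceeded that in mesangial cells by 0.5059 (limma adjusted p = 0.0514) and that in podocytes by 0.3969 (limma adjusted p = 0.0776). Its cluster was picked by these same values too. The cluster is shared with *Cdc23*, and *Cd2ap* was not lower in the endothelial arrays labelled mutant.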

How the results depend on the processing

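No paired analysis was possible because the groups share no replicate numbers in the labels. Leaving out 1 array at a time, the members called lower in mutant mesangial cells numbered 1 to 6 (2.71% to 3.65% of transcript clusters), in podocytes 0 to 1 (3.63% to 8.61%) and in endothelial arrays labelled mutant 0 to 7 (0.68% to 1.49%). Members with no overlap on the lower side numbered 2 to 15 in podocytes (9.98% to 14% of all transcript clusters) and 3 to 17 in endothelial cells (18.2% to 24.3%), and those with a lower mean in endothelial cells 22 to 36. Between wild type cell types, podocytes were lower than mesangial cells for 2 to 7 members (9.36% to 11.1%) and than endothelial cells for 4 to 15 (11.9% to 13.6%). Mesangial against endothelial cells gave 0 to 2 higher (9.96% to 11.5%) and 0 to 2 lower (8.21% to 9.55%).

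Of the 4 mesangial calls, 1 was left with the minimum in all 3 arrays of a group and 0 with an adjusted p (2.96% and 1.32% of transcript clusters). *Mki67* was also lost with no minimum or array weights, and *Top2a* with clusters averaged. Quantile normalization again, or clusters with 1 symbol only, left 1 member without overlap on the lower side in podocytes (7.17% and 7.35% of all transcript clusters), and quantile normalization or subtracted medians left 1 in endothelial cells (9.01% and 4.67%). Podocytes against mesangial cells had 1 member higher with medians subtracted or clusters averaged (5.37% and 6.34% of transcript clusters). Mesangial against endothelial cells had 0 higher with array weights or without both wild type arrays that stood apart, an alternative chosen after seeing the data (11.1% and 12.2%), and 1 lower with the minimum in all 3 arrays, medians subtracted, quantile normalization or 1 symbol only (8.95%, 7.78%, 8.93% and 8.56%). The *Kif20a* cluster made 1 interaction call between endothelial and mesangial cells with no minimum, array weights or medians subtracted, and 1 between endothelial cells and podocytes with medians subtracted. The share of all transcript clusters called was not counted for these settings. In the main fit it was 1.07% and 2.11%. Members below the threshold in all arrays numbered 2 at 64 (4.76%, against 36% of all transcript clusters) and 33 at 200 (78.6%, against 72.4%). The members' share was the smaller at 64 and 100 and the larger at 200, and the difference of the shares was not tested. Each member was read from the brightest cluster of its gene, while all transcript clusters include dimmer ones, so the shares are not alike.

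Directions turned for *Mki67* in podocytes (-0.29 to 0.22 over the arrays left out), *Top2a* in endothelial cells (-0.996 to 0.11), *Top2a* between podocytes and endothelial cells (-0.91 to 0.20) and *Mki67* between mesangial and endothelial cells (-0.25 to 0.52). *Mcm7* between podocytes and endothelial cells turned to -0.19 with 1 symbol only. Only *Mki67*, *Top2a* and members with an unadjusted p under 0.05 in a comparison were followed for this list. Others turned as well, such as *Prc1* between genotypes in endothelial cells, at 0.07 without wild type array A against -0.41 with it. The cause was not tested for any of these.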
